A study of Mus musculus with 18 samples.

Results

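Germline genes serve eggs, sperm and their precursors, and in most other cells methylation of their CpG-rich promoters helps to keep them silent. CTCF binding was described around 10 of them in mouse embryonic stem cells: Dazl, Ddx4, Mael, Sycp1, Sycp3, Tex11, Tex14, Tex15, Brdt and Tex101. A CTCF peak was assigned to a gene when any of its summits, the positions of highest signal, fell between 10 kb before and 10 kb after the gene. This gave 108 of 192685 peaks over 3 peak lists: 43 of 71075 in wild type (WT), 32 of 62238 in TKO and 33 of 59372 in SKO. Peaks that overlapped between lists were merged, which left 52 of 78072 regions.

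Chromatin immunoprecipitation with an antibody to CTCF was sequenced beside input DNA. WT cells carried no labelled deletion, TKO cells lacked Tet1, Tet2 and Tet3, and SKO cells lacked these and also Dnmt1, Dnmt3a and Dnmt3b. Each genotype had 3 ChIP and 3 input samples, and the authors called peaks once per genotype on the pooled replicates. All cells were kept with LIF, typically on gelatin with irradiated mouse embryonic fibroblasts as feeders. Each genotype is a line of its own, so a difference between lines and the loss of the enzymes cannot be told apart. The labels do not say whether replicates were separate cultures. Pooled lists hold no spread between replicates, so no p-value is given, and each interval is a 95% interval that covers counting error only. Methylation, expression and the deletions themselves were not analysed here, so silencing is background and not a result.

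CTCF is a zinc-finger protein that helps to form chromatin loops, and methylation of CpGs within some of its binding sites hinders it. DNMT enzymes methylate CpGs, and TET enzymes oxidise the methyl group. In stem cells a Polycomb complex with E2F6, MGA and MAX also represses germline promoters, and MGA with MAX recognises the E-box CACGTG.

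Dazl, Mael and Brdt each had a CTCF peak close to the gene start that at least 1 list lacked. The RefSeq sequence upstream of these starts is shown (GRCm38.p6, the mm10 assembly). Tex14 had such a peak too, but the summit of that peak lies inside the gene Rad51c, and the Tex14 sequence is left out. CpGs, the sites of DNMT and TET action, are in capitals. Each sequence runs 5′ to 3′ on the strand of the gene and stops at the last base before the annotated gene. Dazl is at chr17:50293621-50293870 (minus strand, 20 CpGs), Mael at chr1:166238745-166238994 (minus strand, 18 CpGs) and Brdt at chr5:107330944-107331115 (plus strand, 11 CpGs). The peaks of these genes close to the start lie inside the genes, so none of them overlaps the sequence shown.
Dazl: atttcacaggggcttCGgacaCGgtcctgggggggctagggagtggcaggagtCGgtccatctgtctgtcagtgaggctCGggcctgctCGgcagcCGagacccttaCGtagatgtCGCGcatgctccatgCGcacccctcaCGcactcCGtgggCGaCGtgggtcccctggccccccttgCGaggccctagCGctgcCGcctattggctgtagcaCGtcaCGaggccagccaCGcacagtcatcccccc
Mael: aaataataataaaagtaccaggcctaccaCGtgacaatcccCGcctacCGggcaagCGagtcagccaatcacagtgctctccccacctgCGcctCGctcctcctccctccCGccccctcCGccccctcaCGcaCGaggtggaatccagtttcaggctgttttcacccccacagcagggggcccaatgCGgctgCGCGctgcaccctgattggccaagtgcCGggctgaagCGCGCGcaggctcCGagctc
Brdt: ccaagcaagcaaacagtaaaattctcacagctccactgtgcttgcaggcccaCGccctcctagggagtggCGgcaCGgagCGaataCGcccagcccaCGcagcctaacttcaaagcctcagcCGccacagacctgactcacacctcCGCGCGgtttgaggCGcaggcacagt

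The RefSeq promoter table, with 250 bases before and 50 bases after each start, held 8 of the 10 genes, all but Tex11 and Tex15. The 8 promoters held 15 to 38 CpGs in 300 bases, beside a median of 13 over 17492 protein-coding promoters (quartiles 3.75 and 24). Ddx4 had 38, more than 93.9% of promoters, Dazl had 28, Mael 24 and Brdt 23, and Sycp3 had the fewest with 15. Searched on both strands, CACGTG was present in Mael, Sycp1, Brdt, Sycp3 and Ddx4, which is 5 of 8, and in 7.90% of all promoters. The E2F6 core GGCGGGA was present in Mael, Tex14 and Ddx4, 3 of 8, and in 14.9% of all promoters. The CTCF core strings CCCTC and GGGGGC were each present in 5 of 8, and in 68.3% and 32.7% of all promoters. A match describes letters in this window and is not a bound site.

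The depth of each list was recovered from its own values. Fold enrichment and −log10 p together gave a whole number of ChIP fragments at the summit, called the pileup here, for 100.0% of peaks (relative error under 1e-04). The genome-wide background was 1.76 fragments in WT, 1.82 in TKO and 1.37 in SKO, which is 1.04 and 0.779 times WT. On that background the smallest pileup that passed the q-value threshold of 0.05 was 7 for WT, 8 for TKO and 7 for SKO. Reads without molecular identifiers are not independent molecules.

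Peaks were spread unevenly over the genes. Tex14 held 17 WT, 15 TKO and 17 SKO peaks, whereas Ddx4 held 0 in every list. Tex15 had 7, 5 and 2 in the same order, Tex11 had 5, 2 and 3, and Brdt had 5, 2 and 2. Sycp1 had 3 in every list. Dazl had 2, 1 and 2, Tex101 had 2, 2 and 1, Sycp3 had 1, 2 and 1, and Mael had 1, 0 and 2. Per 100 kb, flanks included, the median over the 10 genes was 4.41 WT, 2.78 TKO and 2.80 SKO peaks, beside 4.29, 3.86 and 3.68 over 21887 protein-coding genes.

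**Figure D1:**
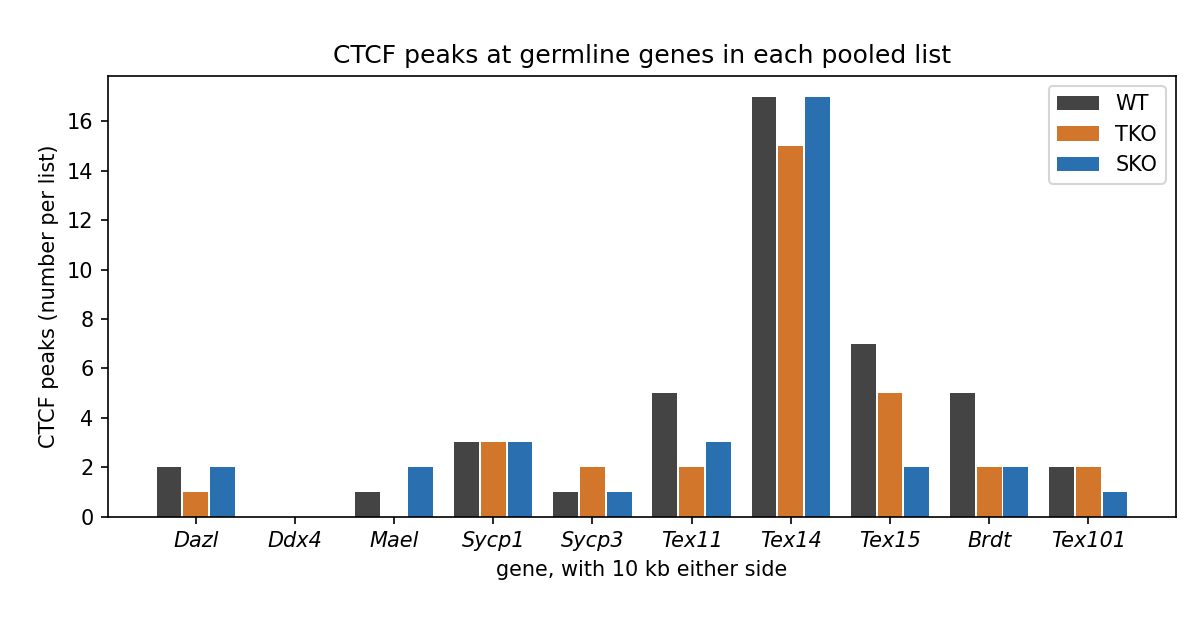
Number of CTCF peaks per list (vertical axis) for each gene with 10 kb either side (horizontal axis), with WT in dark grey, TKO in orange and SKO in blue and no error bars because each list is pooled. Tex14 has 15 to 17 peaks in each list, Ddx4 has no bar, and Tex15 has 7, 5 and 2.

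Over the 10 genes, 13 of 43 WT peaks had no overlapping TKO peak (30.2%, interval 18.6% to 45.1%), beside 19.0% of all WT peaks. Tex14, Brdt and Tex11 had 3 of these each, Tex15 had 2, and Dazl and Mael had 1 each. The missing peaks had WT pileups of 7 to 23, and the 30 shared ones 11 to 242. In the other direction 2 of 32 TKO peaks had no WT peak (6.25%, interval 1.73% to 20.1%), beside 7.49% of all TKO peaks, and they lay at Sycp3 and Tex14. Without Sycp3 this was 1 of 30 (3.33%).

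In SKO, 19 of 43 WT peaks had no partner (44.2%, interval 30.4% to 58.9%), beside 21.9% of all WT peaks. Tex15 had 6 of these, Tex14 had 4, Brdt and Tex11 had 3 each, and Dazl, Sycp3 and Tex101 had 1 each. Without Tex15 it was 13 of 36 (36.1%), and without Tex14 it was 15 of 26 (57.7%). The missing peaks had WT pileups of 7 to 34, or 5.45 to 26.5 when scaled to the SKO background. The part that the lower SKO depth had in this count was not tested.

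SKO peaks without a WT peak were 9 of 33 (27.3%, interval 15.1% to 44.2%), beside 6.59% of all SKO peaks. Tex14 had 4 of them, and Dazl, Mael, Sycp3, Tex11 and Tex15 had 1 each. Their SKO pileups were 7 to 17, in a list of lower depth than WT.

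Between the knockouts, 8 of 32 TKO peaks had no SKO peak (25%, interval 13.3% to 42.1%), beside 14.5% of all TKO peaks. Tex15 had 4 of the 8: without it the count was 4 of 27 (14.8%), and without Tex14 it was 7 of 17 (41.2%). SKO peaks without a TKO peak were 9 of 33 (27.3%, interval 15.1% to 44.2%), beside 10.4% of all SKO peaks. Tex14 had 3 of these, Dazl and Mael 2 each, and Tex11 and Tex15 1 each. None of these shares was tested against that of the whole list.

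Of the 52 merged regions, all 3 lists held 22 (42.3%), beside 66.3% of all regions. WT alone held 11 (21.2%, beside 12.7%), WT with TKO held 8 (15.4%, beside 7.18%) and SKO alone held 7 (13.5%, beside 3.34%). WT with SKO held 2 (3.85%, beside 4.51%), TKO with SKO held 2 (3.85%, beside 1.64%), and TKO alone held 0 (beside 4.30%).

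Most of the peaks were weak for their list. Their median fold enrichment, a value of the authors, was 7.29 for WT, 7.20 for TKO and 5.71 for SKO, beside 10.0, 9.84 and 10.5 over the whole lists. By −log10 q, 32 of 43 WT peaks, 24 of 32 TKO peaks and 26 of 33 SKO peaks lay below the median of their list. In WT 33 of the 43 peaks had their strongest summit inside the gene, and 4 lay within 1 kb of a gene boundary.

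Weak peaks were missing more often throughout the lists, so the shares were also taken by strength, in deciles of −log10 q. In the 3 weakest deciles 10 of 22 WT peaks of these genes lacked a TKO peak (45.5%, beside 54.0% of all) and 13 of 22 lacked an SKO peak (59.1%, beside 60.8%). In deciles 4 to 5, 3 of 10 lacked a TKO peak (30%, interval 10.8% to 60.3%, beside 13.1%). In the same deciles 6 of 10 lacked an SKO peak (60%, interval 31.3% to 83.2%, beside 17.1%), 2 at Tex15 and 1 each at Brdt, Tex11, Tex14 and Tex101. Of these 10 peaks 9 lay in decile 4, a finer split made after their values were seen. There 3 of 9 lacked a TKO peak (33.3%, interval 12.1% to 64.6%, beside 19.2% of all) and 6 of 9 an SKO peak (66.7%, interval 35.4% to 87.9%, beside 24.6% of all). In deciles 6 to 10, 0 of 11 were missing from either knockout, with an upper bound of 25.9%. Of SKO peaks in the 3 weakest deciles, 9 of 20 lacked a WT peak (45%, interval 25.8% to 65.8%), beside 21.1% of all. Over all SKO peaks this share was 37.5% in decile 1, 17.6% in decile 2 and 8.14% in decile 3. Of the same 20 peaks 9 lacked a TKO peak (45%, interval 25.8% to 65.8%), beside 32.0% of all. The 20 peaks were not matched to all peaks decile by decile. Of TKO peaks in the 3 weakest deciles, 6 of 16 lacked an SKO peak (37.5%, beside 43.4% of all). In deciles 4 to 5 it was 2 of 8 (25%, interval 7.15% to 59.1%, beside 6.75%).

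**Figure D2:**
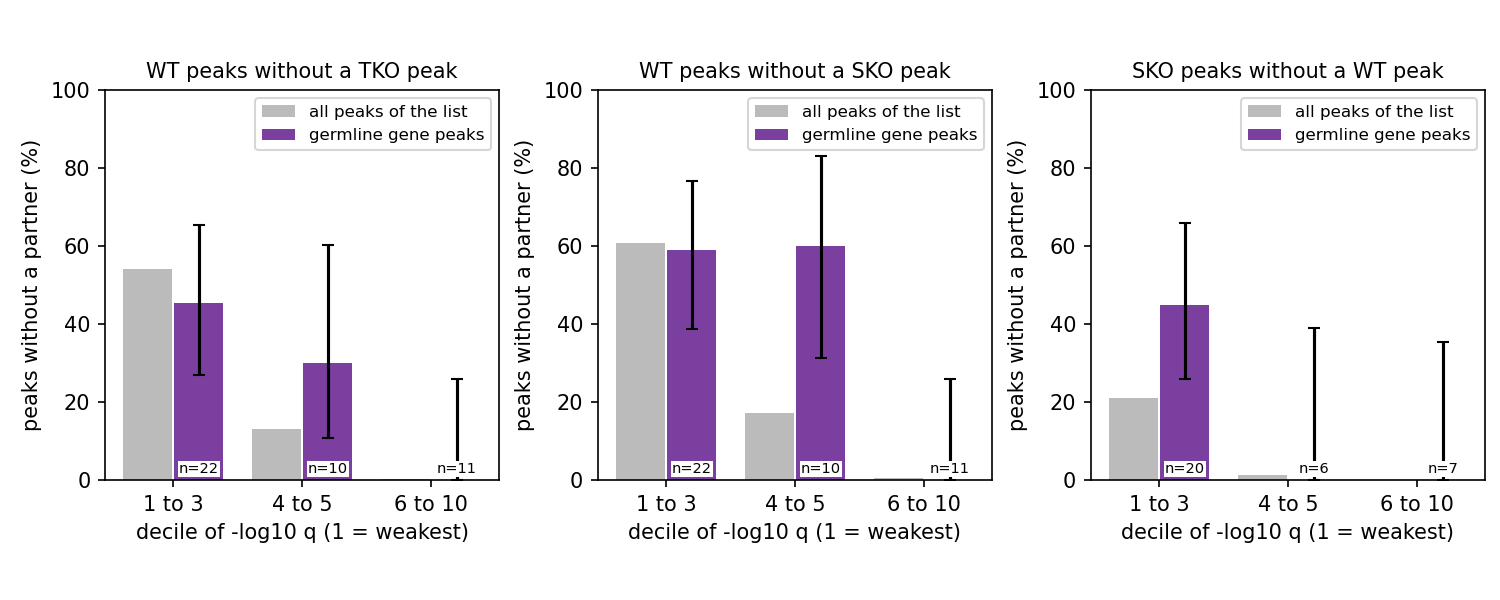
Percent of peaks without a partner in the other list (vertical axis) by decile of −log10 q (horizontal axis, 1 is weakest), for all peaks of the list in grey and the germline gene peaks in purple, with 95% Wilson intervals and their number. For WT peaks without an SKO peak the bars are 59.1% and 60.8% in deciles 1 to 3, and 60% stands beside 17.1% in deciles 4 to 5.

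Dazl encodes an RNA-binding protein needed for germ cell development (chromosome 17, 50279393 to 50293620, minus strand). Its peaks all lay in the first 2 kb of the gene, and none of its regions was in all 3 lists. The region whose WT summit lay 1.94 kb inside the start had a pileup of 15 in WT and 14 in SKO and no TKO peak. The next, 0.861 kb inside the start, had 14 in WT and 12 in TKO and no SKO peak. SKO alone had a peak 0.360 kb inside the start (50293187 to 50293389), with 7 fragments and −log10 q 1.95. That pileup equals the smallest that could pass on the SKO background.

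Ddx4, the Vasa RNA helicase of germ granules (chromosome 13, 112598333 to 112652633), had no CTCF peak in any list. The nearest WT summits lay 68.1 kb below and 19.3 kb above it. Of 1868 protein-coding genes of similar length, 7.44% had no WT peak.

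Mael encodes Maelstrom, a factor of transposon silencing by piRNAs (chromosome 1, 166201385 to 166238744, minus strand). A region 1.17 kb inside its start had a pileup of 14 in WT and 13 in SKO and no TKO peak. SKO alone had a peak 24.4 kb inside the start (166214216 to 166214461), with 17 fragments, fold 6.76 and −log10 q 10.1. By −log10 q it was the strongest of the 9 SKO peaks that WT lacked.

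Sycp1 encodes the transverse filament of the synaptonemal complex, which joins paired chromosomes in meiosis (chromosome 3, 102818499 to 102936100). Its 3 regions were in all 3 lists. The WT pileup was 19 at each of them. TKO had 15, 25 and 19 in chromosome order, and SKO had 13, 12 and 10. The intervals of the 3 SKO to WT ratios all include the median of 0.733 over all shared peaks, so no difference beyond that of the lists was detectable at this depth. The last region lay within 18 to 86 bases of the pseudogene Gm33866.

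Sycp3 encodes a protein of the lateral elements of that complex (chromosome 10, 88459587 to 88473236). A region 6.01 kb inside its start had 15 fragments in WT and 15 in TKO and no SKO peak. Another had 19 in TKO and 11 in SKO and no WT peak. The latter also lies inside Chpt1, a gene of phospholipid synthesis that overlaps Sycp3, so it cannot be assigned to Sycp3 alone.

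Tex15 is needed for male meiosis and for silencing of transposons in germ cells (chromosome 8, 33516689 to 33592503). The 3 WT peaks inside it had pileups of 13, 34 and 19. TKO had no peak over the first and 27 fragments at each of the other two, and SKO had none of them. A region 2.02 kb below the gene (33514546 to 33515082) had 28 in WT and 17 in TKO and no SKO peak. A WT peak of 18 fragments 3.06 kb above it had no partner in either knockout. The strand of Tex15 was not used here, so distances are from its lower and upper coordinates.

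The peak shared by all lists near Tex15 lay 116 bases from Ppp2cb, the gene of a catalytic subunit of protein phosphatase 2A. It had 89 fragments in WT, 77 in TKO and 48 in SKO. The SKO to WT ratio was 0.539 (interval 0.372 to 0.775), which includes the median of 0.733 over all shared peaks. A region inside Ppp2cb had 26 in WT and 20 in TKO and no SKO peak, and SKO alone had a peak of 11 fragments 6.50 kb below Tex15.

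Of the 7 WT peaks at Tex15, 6 thus had no SKO partner (85.7%). They lay in decile 2 (3 peaks), decile 3 (1) and decile 4 (2), with −log10 q of 6.03 to 16.6. Of all WT peaks in these deciles 62.1%, 43.4% and 24.6% had no SKO peak. Among 1977 protein-coding genes with at least 7 WT peaks the median share missing from SKO was 20%, and 1 gene, Tex15, reached 85.7%. The next were Sipa1l1 with 9 of 11, Celf2 with 6 of 8, and Eipr1, Fam163a and Map3k4 with 5 of 7 each. These genes were not matched for peak strength, and Tex15 was picked because most of its WT peaks were missing.

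Brdt encodes a testis bromodomain protein that binds acetylated histones (chromosome 5, 107331116 to 107387061, plus strand). It had 3 WT peaks without a partner in either knockout. The first (107331131 to 107331380) lies just inside the annotated start, past the end of the Brdt sequence shown above. Its summit was 0.163 kb inside the gene, with 17 fragments, fold 3.93 and −log10 q 5.14. The second lay 35.1 kb inside the start with 23 fragments, and the last lay 3.00 kb past the end of the gene with 13. Of the shared regions, one had 24 in WT, 17 in TKO and 13 in SKO. The other, by the end of the gene, had 11, 19 and 10 and lies in the non-coding gene Gm17202.

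Tex11 is an X-linked factor of meiotic crossing over (chromosome X, 100838648 to 101059639). It also had 3 WT peaks without a partner in either knockout, with 14, 21 and 7 fragments. The last, in the pseudogene Gm9078, just passed the threshold at −log10 q 1.34. SKO alone had a peak of 12 fragments inside the gene. The strongest region had 88 in WT, 75 in TKO and 92 in SKO, and its SKO to WT ratio of 1.05 (interval 0.772 to 1.42) lay above the median of 0.733. Among shared peaks of similar WT pileup the middle 95% spanned 0.422 to 1.06, a range that holds 1.05. The other shared region had 22, 21 and 19.

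**Figure D3:**
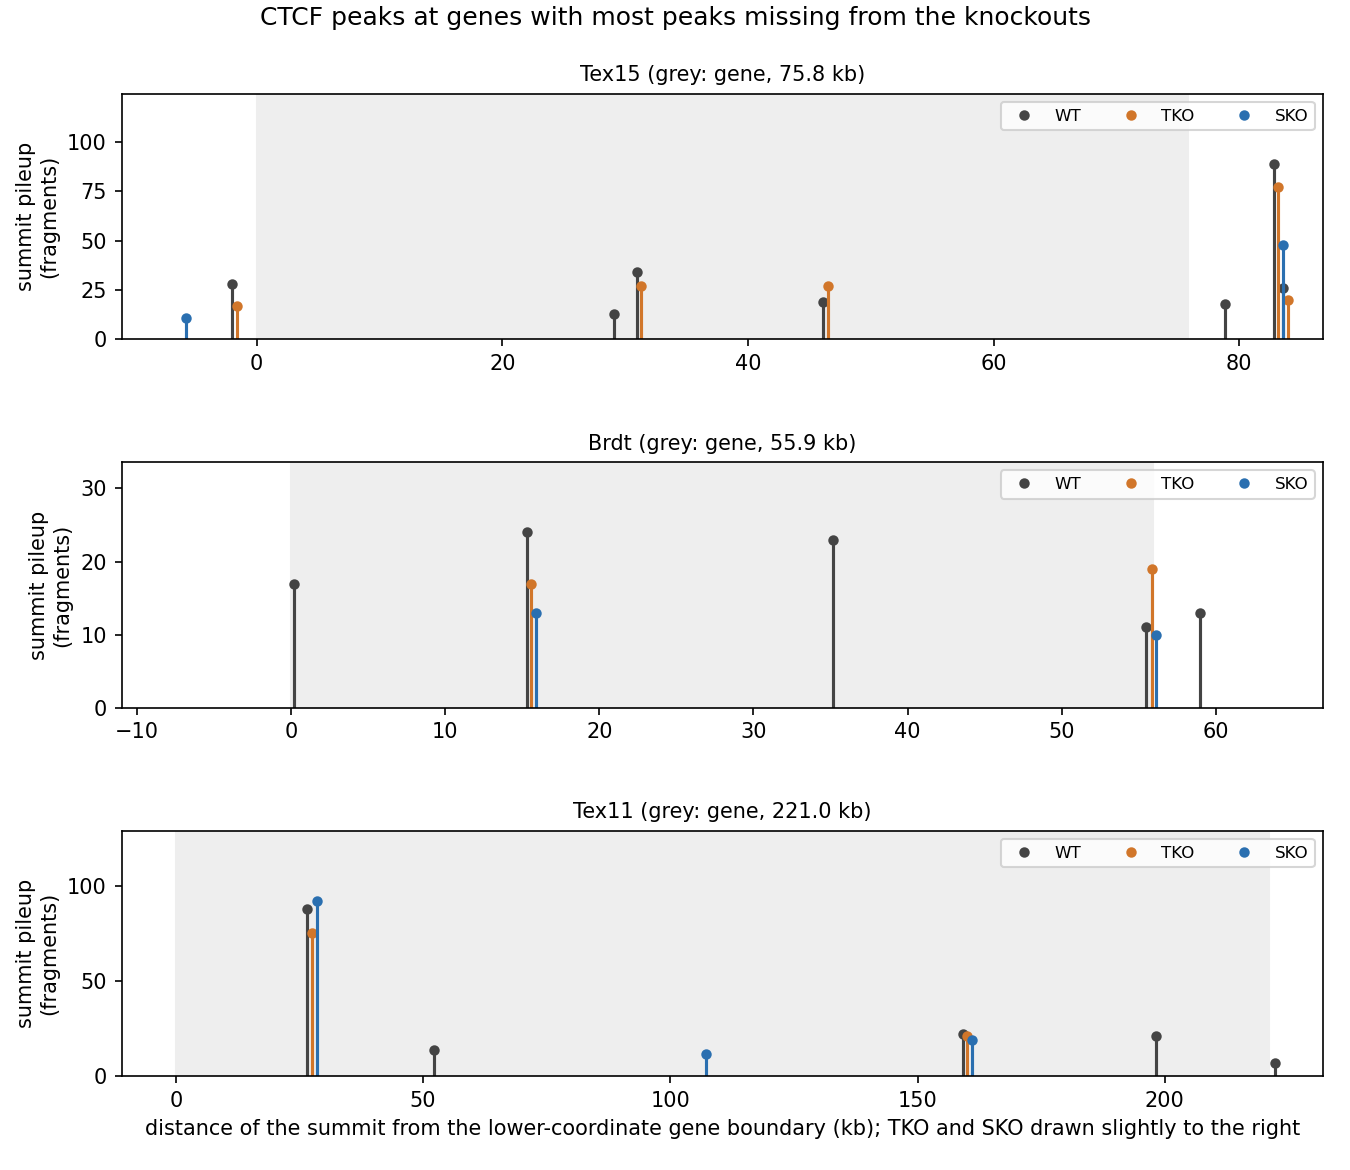
Summit pileup in fragments (vertical axis) against distance from the lower-coordinate gene boundary in kb (horizontal axis) for Tex15, Brdt and Tex11, 1 stem per peak, with WT in dark grey, TKO in orange, SKO in blue and the gene shaded. No SKO stem stands inside Tex15, and Brdt and Tex11 each have 3 WT stems with no knockout stem beside them.

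Brdt and Tex11 each lacked 3 of 5 WT peaks (60%) in either knockout. Of 4384 protein-coding genes with at least 5 WT peaks, 79 (1.80%) reached that share in TKO and 148 (3.38%) in SKO. The genes were not matched for peak strength, and Brdt and Tex11 were picked because most of their WT peaks were missing. The highest shares in TKO were at Numb (5 of 6) and at 4930503L19Rik, Cdkl3, Crybg3 and Elavl2 (4 of 5 each). In SKO they were at Crebbp, Crybg3 and Elavl2 (5 of 5 each), Tex15 (6 of 7) and Ccdc148 (5 of 6).

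Tex14 encodes a protein of the bridges between dividing germ cells (chromosome 11, 87405013 to 87555823, plus strand). Of 836 protein-coding genes of similar length, 97.8% had fewer than its 17 WT peaks. The strongest peak of the 10 genes lay 47.6 kb inside its start (87452526 to 87452912), with 242 fragments in WT, 173 in TKO and 152 in SKO. The TKO to WT ratio was 0.715 (interval 0.585 to 0.873), below the median of 0.894 over all shared peaks. Shared peaks of similar WT pileup had a median of 0.865, with the middle 95% from 0.629 to 1.16, a range that holds 0.715. The SKO to WT ratio was 0.628 (interval 0.509 to 0.773), which includes the median of 0.733.

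All 3 lists held 13 of the 21 merged regions at Tex14. A WT peak 0.704 kb upstream of the start, inside the neighbouring recombination gene Rad51c, had 15 fragments and no partner in either knockout. The same held for WT peaks of 13 and 23 fragments inside Tex14. A region 78.9 kb inside the start had 17 in WT and 29 in TKO and no SKO peak.

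Small nuclear RNA genes lie inside Tex14. Of the 8 regions not in all 3 lists, 4 had a summit within 1 kb of one, and of the 13 in all lists 0 did. These were SKO peaks by Rnu1a1 (14 fragments) and Rnu3b3 (13), a region by Rnu3b4 with 18 in TKO and 17 in SKO, and a WT peak by Rnu3b2 (13). A further SKO peak of 14 fragments, 45.0 kb inside the start, had no such gene within 1 kb. Over the whole lists, 16 of 80 WT peaks within 1 kb of such a gene had no TKO peak (20%, beside 19.0% of all) and 19 of 80 had no SKO peak (23.75%, beside 21.9%). Of 75 such SKO peaks, 12 had no WT peak (16%, beside 6.59%). As background, such RNA genes have near-identical copies elsewhere in the genome, and how reads were placed there was not tested. Leaving out peaks within 1 kb of them over the 10 genes gave 6 of 30 SKO peaks without a WT peak (20%) and 1 of 31 TKO peaks without a WT peak (3.23%).

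**Figure D4:**
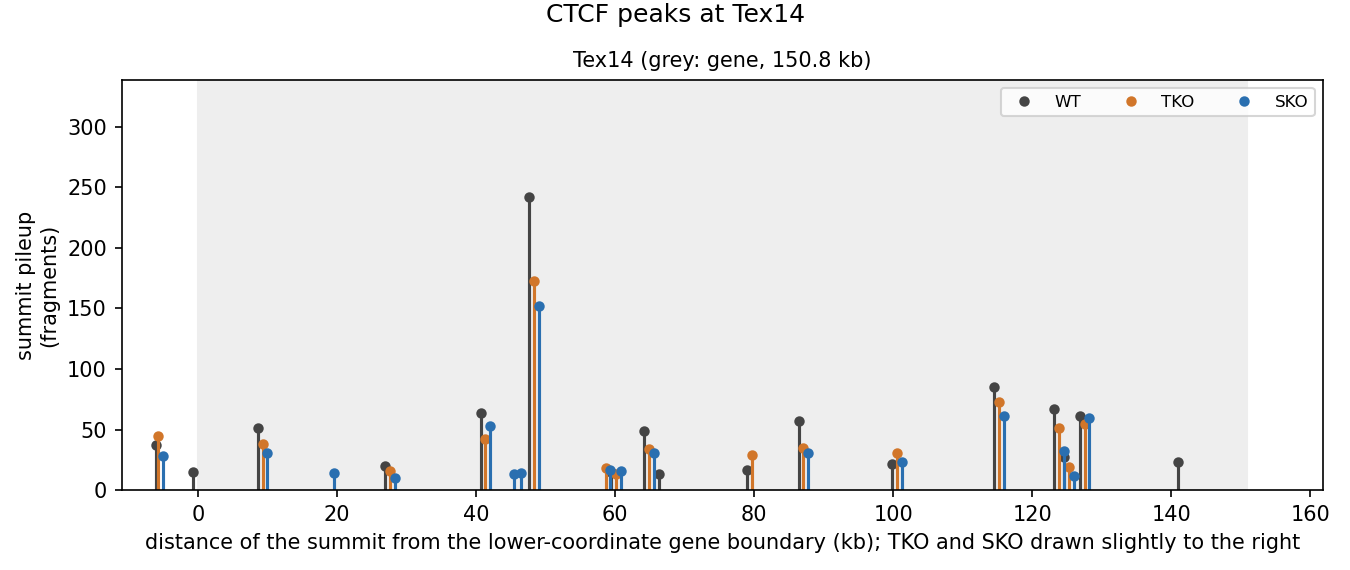
Summit pileup in fragments (vertical axis) against distance from the lower-coordinate boundary of Tex14 in kb (horizontal axis), 1 stem per peak, with WT in dark grey, TKO in orange, SKO in blue and the gene shaded. The tallest stems have 242, 173 and 152 fragments, and stems of regions that are not in all 3 lists reach at most 29.

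Tex101 encodes a germ cell surface protein needed for male fertility (chromosome 7, 24668012 to 24672050, minus strand). Both of its WT peaks lay past the end of the gene. One, 5.26 kb away inside the non-coding gene Gm4598, had 113 fragments in WT, 94 in TKO and 89 in SKO. The other, 8.82 kb away, had 24 in WT and 17 in TKO and no SKO peak.

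Where a region was shared, its pileup was also compared. The median TKO to WT ratio was 0.842 over 30 regions (range 0.607 to 1.73), beside 0.894 over 56971 shared peaks. The median SKO to WT ratio was 0.701 over 24 regions (range 0.444 to 1.07), beside 0.733 over 54908. The median SKO to TKO ratio was 0.826, beside 0.821. The median of all shared peaks lay outside 2 of 30 TKO to WT intervals, both at Tex14 and in opposite directions. There 1 ratio was lower (0.715) and 1 higher (1.71, interval 0.907 to 3.31). Shared peaks of similar WT pileup to the latter had a middle 95% of 0.588 to 1.83. Of 24 SKO to WT intervals 1 lay above the median, at Tex11. Of 24 SKO to TKO intervals 2 lay above the median of 0.821, at Tex11 (ratio 1.23, interval 0.894 to 1.69) and at Tex14 (ratio 1.26, interval 0.826 to 1.94). Among shared peaks of similar TKO pileup, the middle 95% spanned 0.492 to 1.22 for Tex11 and 0.421 to 1.33 for Tex14. Summits of shared regions lay a median of 10.5 bases apart between WT and TKO and 21.5 between WT and SKO.

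**Figure D5:**
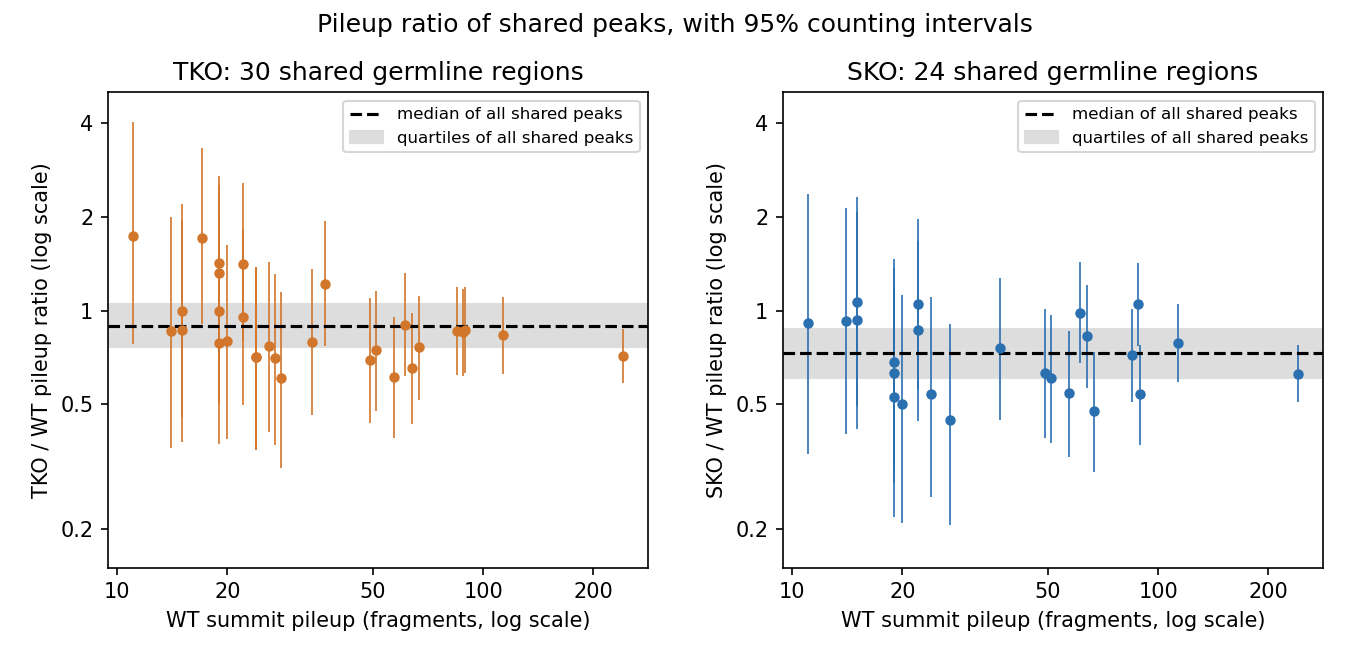
Ratio of TKO (left) or SKO (right) to WT summit pileup (vertical axis, log scale) against WT pileup in fragments (horizontal axis, log scale), 1 point per shared region with its 95% counting interval. The dashed lines are the medians of all shared peaks, 0.894 and 0.733, the grey bands are the quartiles, and 2 of 30 and 1 of 24 intervals miss the line.

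Other germline genes, a list of 30, had shares nearer to those of the whole lists. Of their 84 WT peaks 13 had no TKO peak (15.5%, interval 9.27% to 24.7%, beside 19.0% of all WT peaks). No SKO peak overlapped 20 of the 84 (23.8%, interval 16.0% to 33.9%, beside 21.9%). Of their 77 TKO peaks 6 (7.79%, beside 7.49%), and of their 68 SKO peaks 5 (7.35%, beside 6.59%), had no WT peak. The genes with the most changes between WT and TKO, 2 each, were Meioc, a meiosis regulator, with 2 of 3 WT peaks missing, and Mei1, Syce1 and Tex19.1 with 1 missing and 1 added each. In SKO 7 genes had 2 changes each. Fkbp6 lacked 2 of 5 WT peaks, Mei1 2 of 6, Smc1b, a meiotic cohesin gene, 2 of 5, Stra8 2 of 5 and Tdrd1 2 of 3, and Mov10l1 and Syce2 had 1 missing and 1 added each. Between TKO and SKO, Mei1 lacked 2 of 6, and Mov10l1, Msh4 and Tex19.1 had 1 missing and 1 added each. The difference from the 10 genes was not tested.

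Known repressors of germline genes and the methylation enzymes, 15 genes, had 73 WT peaks. Of these 14 had no TKO peak (19.2%, interval 11.8% to 29.7%, beside 19.0% of all WT peaks) and 17 had no SKO peak (23.3%, interval 15.1% to 34.2%, beside 21.9%), shares near those of the whole list. Of their 66 TKO peaks 7 (10.6%, beside 7.49%), and of their 57 SKO peaks 2 (3.51%, beside 6.59%), had no WT peak. Mga, the E-box factor, lacked 3 of 9 WT peaks in each knockout, with 1 added in SKO. Pcgf6, a Polycomb subunit, lacked 2 of 4 and had 1 added in each. Rnf2, the ubiquitin ligase of that complex, had 1 missing and 2 added in TKO. Among the genes that the labels give as deleted in the same cells, Tet1 lacked 2 of 9 in TKO, with 1 added, and 3 of 9 in SKO. Tet2 lacked 2 of 5 in TKO, with 1 added, and 3 of 5 in SKO. What the deletions themselves did to these peaks was not tested. Between the knockouts Dnmt3b, deleted in SKO, lacked 3 of 5 TKO peaks in SKO, and Rnf2, Tet1 and Tet2 lacked 2 each, with 1 added at Rnf2.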

How the data were processed

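The data were 3 deposited CTCF peak lists, 1 per genotype, each called on 3 pooled replicates. The submitters' processing notes name Bowtie2 2.3.4, SAMtools 1.9, MACS2 2.1.2 and mm10. The commands and the filters on reads were not stated in the sources used. Each deposited peak has a fold enrichment (a ratio to local background), a −log10 p, a −log10 q and a score, 10 times the −log10 q, as the authors gave them.

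Rows with equal intervals were joined under their strongest summit, and an overlap of at least 1 bp counted as shared. Pileups were solved from fold and −log10 p, assuming that MACS2 added 1 to pileup and background, with a solver tested on simulated data. Shares carry 95% Wilson intervals and ratios exact binomial ones. Gene positions are those of RefSeq for GRCm38.p6, without exons, so exons and introns were not separated. Python 3.11.15, pandas 2.3.3 and scipy 1.17.1 were used.

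The 10 genes and the gene lists were chosen with earlier results of these data known. For each gene the strongest WT peak, the regions not in all 3 lists and the peak nearest the start were named. In the other lists at most 4 genes per comparison were named, most changes first and ties by symbol. Stra8, Syce2 and Tdrd1, tied in SKO, and Tet2, tied in TKO, were added later. At most 5 genes most like Tex15, Brdt or Tex11 were named. Peaks near small nuclear RNA genes, and some shared regions, were picked out after their values were seen. Alternatives were a −log10 q of at least 5, other windows, stricter overlaps, rows counted separately and the strongest summit alone.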

Additional observations from a re-analysis of the deposited data

How the results depend on the processing

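Of 139 values recomputed under alternatives, 129 stayed within their interval or within 1.5 times, and 10 did not. The intervals are wide, so 33.7% and 57.7% of WT peaks without an SKO peak both counted as within. The number that stayed is therefore a weak check. All 10, and 60 of the 129, came from other thresholds, windows, overlaps or ways to count peaks. The remaining 69 came from leaving out single genes or peaks near small nuclear RNA genes, or from scaling by background. Leaving out a gene or peaks reuses the rest of the same peaks, so it is a weaker check, and Ddx4 had 0 peaks to leave out. With 50 kb either side there were 89 WT, 71 TKO and 68 SKO peaks, the TKO median per 100 kb was 4.52, and 9 of 68 SKO peaks (13.2%) had no WT peak. In that window 22 of 89 WT peaks (24.7%) had no TKO peak and 30 of 89 (33.7%) no SKO peak. Of 100 merged regions 54% were in all 3 lists. Each of these shares stayed within its interval but lay nearer to that of the whole lists than with 10 kb. With −log10 q of at least 5 the SKO median per 100 kb was 1.67, and with that threshold in both lists 13 of 29 TKO peaks (44.8%, beside 13.5% of all) had no SKO peak. Within 2.5 kb of a boundary lay 8 WT, 4 TKO and 5 SKO summits. The cause was not tested. Leaving out single genes, leaving out peaks near small nuclear RNA genes and scaling pileups by background were chosen after seeing the data. No paired analysis was possible because the replicates were pooled before peak calling, and no replicate could be left out for the same reason. Depth limits weak peaks: a peak at 7 or 8 fragments is the least that could be called on the genome-wide background.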
